A study of Mus musculus with 2 samples.

Results

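The genes described here are 10 that build or cross-link elastic fibres (Eln, Fbn1, Fbn2, Fbln5, Efemp2, Emilin1, Mfap4, Mfap5, Lox and Loxl1), of 27998 genes counted in single cells of the mouse abdominal aorta. They were chosen by name, and all 10 were found in the count tables. LCWE cells came from 7 pooled abdominal aortas of wild-type C57BL/6J mice, 2 weeks after LCWE was injected into the peritoneum. PBS cells came from 9 pooled aortas of mice of the same strain, 2 weeks after PBS was given by the same route. LCWE, a cell wall extract of Lactobacillus casei, causes an arterial inflammation in mice that is used as a model of Kawasaki disease. Both pools were dissociated with enzymes, cleared of dead cells and made into 1 droplet 3′ library each. The labels used here give no age or sex of the mice, and in a pool no animal can be told from another.

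Elastic fibres let an artery stretch and recoil. Cells secrete tropoelastin, the product of Eln, which is laid onto a scaffold of fibrillin microfibrils and joined into an insoluble polymer by lysyl oxidases. Fibulins and other small glycoproteins bring tropoelastin, microfibrils and the cross-linking enzymes together. In the aorta the concentric elastic lamellae of the media are laid down mainly by smooth muscle cells before adulthood, and elastin is renewed very slowly afterwards. Breaks of these lamellae are a known lesion of arterial inflammation and of aneurysm.

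Cells carried the authors' class names. There were 5091 cells in the LCWE library, with 42275754 UMIs (molecular tags that let copies of a transcript be counted once), and 5386 cells in the PBS library, with 62600808 UMIs. The classes used most were the transitional class between smooth muscle and fibroblast (283 LCWE cells, 0 PBS cells), fibroblasts (813 LCWE and 868 PBS cells), smooth muscle cells (93 and 4141), blood endothelial cells (239 and 217), lymphatic endothelial cells (88 and 29), and T, NK and innate lymphoid cells (2198 and 75). Levels are given as CPM, the UMIs of a gene in a class per 1000000 UMIs of that class, and brackets hold 95% intervals that cover counting error only. With 1 library for each condition there is no replicate check, no test was made, and a difference between libraries cannot be told apart from a difference between 2 pools or 2 preparations. A gene with at least 20 UMIs in both groups together was measured, and it counted as higher or lower at a CPM ratio of at least 2 in either direction. Levels are compared within a gene, not between genes. The 2 libraries shared 8 cell barcodes.

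The class names were set against marker genes. Smooth muscle cells had 3014 CPM (LCWE) and 3586 CPM (PBS) of Myh11, the smooth muscle myosin heavy chain, and fibroblasts had 250.1 and 362 CPM of Pdgfra, a receptor that marks fibroblasts. The transitional class had 369 CPM of Myh11 and 7413 CPM of Acta2, smooth muscle actin, together with 13096 CPM of Col1a1 and 3869 CPM of Lum, which encode a fibrillar collagen chain and the proteoglycan lumican. Its level was 85.2 CPM for Pdgfra and 31.8 CPM for the fibroblast marker Dpt. Of its 283 cells, 169 had a Myh11 UMI. Among the 93 LCWE smooth muscle cells, 16 had no Myh11 UMI, and these had a median of 3135.5 UMIs per cell and 4 Eln UMIs in all.

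Fbln5 and Efemp2 encode fibulin-5 and fibulin-4, close relatives that differed in opposite directions between LCWE and PBS fibroblasts, so the DNA before their start sites is shown. The RefSeq promoter table (GRCm38.p6) held 4 of the 10 members. The 250 bases before the start site lie at chr12:101819120-101819369 on the minus strand for Fbln5 and at chr19:5473696-5473945 on the plus strand for Efemp2, each read 5′ to 3′ along the gene. Capitals mark GC boxes (GGGCGG or its complement CCGCCC) and SMAD half-sites (GTCTG or CAGAC).
Fbln5: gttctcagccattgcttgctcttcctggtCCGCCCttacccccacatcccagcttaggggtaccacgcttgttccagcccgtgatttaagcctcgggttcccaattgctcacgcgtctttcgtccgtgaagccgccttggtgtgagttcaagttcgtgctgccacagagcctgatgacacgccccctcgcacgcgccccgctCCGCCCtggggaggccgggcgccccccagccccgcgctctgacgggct
Efemp2: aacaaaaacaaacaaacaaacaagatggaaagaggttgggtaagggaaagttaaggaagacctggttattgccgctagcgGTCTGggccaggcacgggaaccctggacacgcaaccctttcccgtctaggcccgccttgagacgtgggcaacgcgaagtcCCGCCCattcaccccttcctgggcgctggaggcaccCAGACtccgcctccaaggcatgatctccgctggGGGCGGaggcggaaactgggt
Both windows held 2 GC boxes, and at least 1 occurs in 32.7% of the 32851 promoters of the table searched over the same length. The Efemp2 window also held 2 SMAD half-sites, and the Fbln5 window held 0. At least 1 SMAD half-site was found in 42.2% of all promoters. The share of promoters with 2 or more matches was not counted for either motif. Of the other members in the table, Emilin1, with a ratio near 1 in fibroblasts, also held 2 SMAD half-sites, and Fbn1 held 0. TATA boxes (TATAAA, 12.4% of promoters), AP-1 sites (TGANTCA, 6.75%), TEAD sites (GGAATG, 12.6%) and CArG boxes (1.47%) had no match on either strand of these 2 windows. Matches of letters are a description, and 3′ counts do not show which start site was used.

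Eln transcripts were found across the cells of the vessel wall. In the LCWE library the level was 13594 CPM (13499 to 13690) in the transitional class, 6510 CPM (6419 to 6603) in blood endothelial cells, 5401 CPM (5248 to 5557) in smooth muscle cells, 2456 CPM (2363 to 2552) in 41 proliferating stromal cells, 813 CPM (795 to 831) in fibroblasts and 437 CPM (395 to 483) in lymphatic endothelial cells. LCWE leukocytes had 179 CPM in monocytes, macrophages and dendritic cells, 178 CPM in other myeloid cells, 81.1 CPM in B cells and 64.4 CPM in T, NK and innate lymphoid cells. The first 2 of these leukocyte levels had overlapping intervals, as did the last 2. Some LCWE levels rested largely on few cells. Of the proliferating stromal cells 1 held 1205 of 2615 Eln UMIs, at a median of 8 per cell. Among monocytes, macrophages and dendritic cells 1 held 341 of 1492, at a median of 0. In the PBS library the order, without leukocyte classes of under 50 cells, was blood endothelial cells with 8619 CPM (8478 to 8761), smooth muscle cells with 6798 CPM (6776 to 6821), fibroblasts with 4287 CPM (4235 to 4339), 15 proliferating stromal cells with 3770 CPM (3548 to 4003), lymphatic endothelial cells with 1716 CPM (1587 to 1852) and T, NK and innate lymphoid cells with 256 CPM (209 to 310). The summed level of 7 smooth muscle markers in blood endothelial cells was 1864 CPM (LCWE) and 765 CPM (PBS), against 40560 and 47666 CPM in smooth muscle cells. Cells with a Myh11 UMI went the other way, with 5 of 239 LCWE and 43 of 217 PBS blood endothelial cells.

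**Figure D1:**
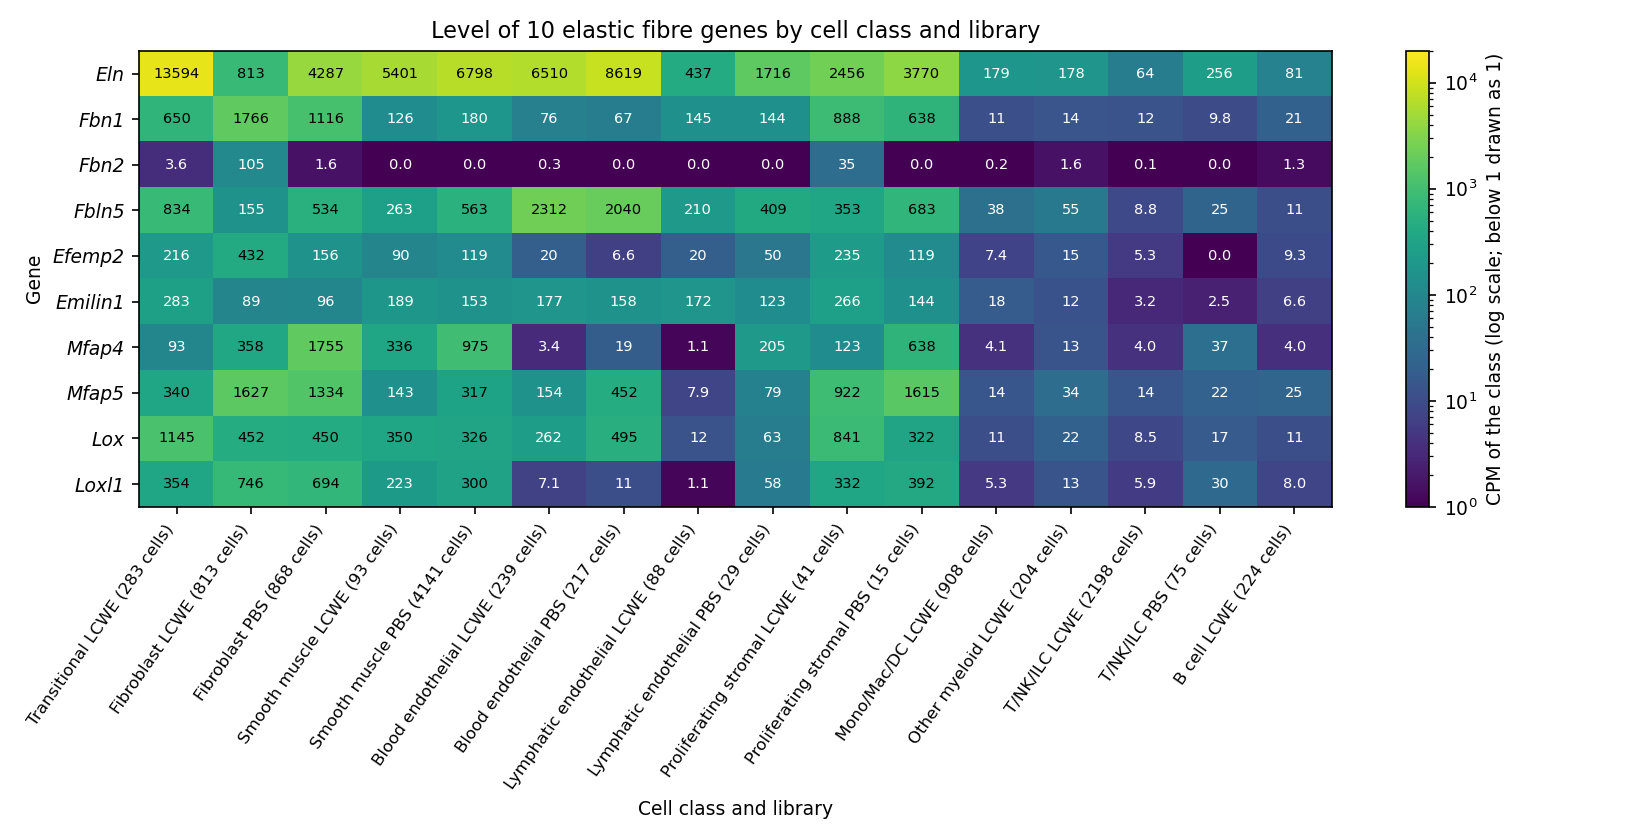
Heat map of the CPM (number in each cell, colour on a log scale) of the 10 genes in cell classes of the LCWE and PBS libraries, with the number of cells per class. Eln is at 13594 CPM in the transitional class, Fbln5 is at 2312 and 2040 CPM in blood endothelial cells, and Fbn2 is at 105 CPM in LCWE fibroblasts against 1.64 CPM in PBS fibroblasts.

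Fbn1 and Mfap5 had higher CPM in fibroblasts than in smooth muscle, endothelial or transitional cells, in both libraries. Fbn1 (chr2:125300594-125507993, minus strand, GRCm38) encodes fibrillin-1, the main microfibril protein after birth. Its level was 1766 CPM (1740 to 1793) in LCWE and 1116 CPM (1089 to 1143) in PBS fibroblasts, 650 CPM (629 to 671) in the transitional class, and 126 CPM (103 to 152) in LCWE and 180 CPM (176 to 184) in PBS smooth muscle cells. Mfap5 (chr6:122505845-122529290, plus strand), which binds fibrillins, was at 1627 CPM (LCWE) and 1334 CPM (PBS) in fibroblasts, 340 CPM in the transitional class and 143 and 317 CPM in smooth muscle cells. In proliferating stromal cells (41 LCWE, 15 PBS) Fbn1 was at 888 and 638 CPM and Mfap5 at 922 and 1615 CPM. The PBS level of Mfap5 there, with an interval of 1471 to 1770, was above that of PBS fibroblasts. Mfap4 (chr11:61485431-61488900, plus strand) encodes a glycoprotein of microfibrils that binds tropoelastin. It was at 358 CPM (LCWE) and 1755 CPM (PBS) in fibroblasts, 336 and 975 CPM in smooth muscle cells, 92.6 CPM in the transitional class, and 3.36 and 18.6 CPM in blood endothelial cells. In LCWE the intervals of fibroblasts (347 to 370) and smooth muscle cells (299 to 377) overlapped.

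Fbn2 encodes fibrillin-2, which is known mainly from developing tissue. It was counted 1111 times in the LCWE library and 10 times in the PBS library. LCWE fibroblasts held 1046 of the 1111 UMIs and the 10 PBS UMIs all lay in fibroblasts. At least 1 Fbn2 UMI was present in 33.2% (30.0 to 36.6) of LCWE fibroblasts and 1.04% (0.475 to 1.96) of PBS fibroblasts. After each cell was thinned to 1500 UMIs the shares were 9.35% and 0.346%. In the 2198 LCWE T, NK and innate lymphoid cells, which have no known role in making fibrillin, 1 UMI was counted, a share of 0.0455% of cells with a UMI at a median depth of 3986 UMIs, against 11494 UMIs in LCWE fibroblasts. No Fbn2 UMI was found in 4141 PBS smooth muscle cells, whose upper limit was 0.069 CPM, or in 93 LCWE smooth muscle cells, whose upper limit was 4.22 CPM.

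The fibulins differed in the cells that held them. Fbln5 (chr12:101746565-101819055, minus strand), whose protein binds tropoelastin and guides it onto microfibrils, was at 2312 CPM (2258 to 2367) in LCWE and 2040 CPM (1972 to 2110) in PBS blood endothelial cells, the highest levels among the classes plotted in the heat map. The transitional class followed with 834 CPM (810 to 857), and smooth muscle cells had 263 CPM (LCWE) and 563 CPM (PBS). Efemp2 (chr19:5473954-5482517, plus strand), whose protein fibulin-4 binds both lysyl oxidase and tropoelastin, was at 432 CPM (LCWE) and 156 CPM (PBS) in fibroblasts, 216 CPM in the transitional class, and 19.8 and 6.6 CPM in blood endothelial cells. Emilin1 (chr5:30913402-30921277, plus strand) encodes a glycoprotein at the border of elastin and microfibrils, and its level was 283 CPM in the transitional class, 189 and 153 CPM in smooth muscle cells, 177 and 158 CPM in blood endothelial cells and 89.3 and 96.0 CPM in fibroblasts (LCWE, then PBS).

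Among the cross-linking enzymes, Lox, which encodes lysyl oxidase, was at 1145 CPM (1118 to 1173) in the transitional class, against 452 CPM in LCWE fibroblasts and 350 CPM in LCWE smooth muscle cells. In the PBS library it was at 450.2 CPM in fibroblasts, 495 CPM in blood endothelial cells and 326 CPM in smooth muscle cells. Loxl1 (chr9:58287738-58313186, minus strand), a lysyl oxidase relative needed for elastic fibre upkeep in adult mice, was at 746 CPM (LCWE) and 694 CPM (PBS) in fibroblasts, 354 CPM in the transitional class, 223 and 300.4 CPM in smooth muscle cells, and 7.06 and 10.8 CPM in blood endothelial cells.

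The classes that carried the transcripts differed between the libraries along with the cells each library held. Smooth muscle cells held 4.06% of the Eln UMIs of the LCWE library and 89.4% of those of the PBS library. Of the UMIs of all genes they held 873909 of 42275754 in LCWE and 53468481 of 62600808 in PBS. In the LCWE library 67.6% of the Eln UMIs lay in the transitional class, which held 13.7% of all UMIs. For Lox the transitional class held 49.7%, for Emilin1 42.4% and for Fbln5 33.2% of the LCWE UMIs. Endothelial cells held 48.6% of the Fbln5 UMIs of the LCWE library and 9.54% of those of the PBS library. Their UMIs of all genes were 3858422 in LCWE and 2047082 in PBS. Fibroblasts held between 70.5% and 94.1% of the LCWE UMIs of Fbn1, Fbn2, Efemp2, Mfap4, Mfap5 and Loxl1, and 9984305 of the 42275754 LCWE UMIs of all genes. Over all cells of a library, Eln was at 2751 CPM in LCWE and 6494 CPM in PBS, Mfap4 at 110 and 1008 CPM, Fbn1 at 545 and 268 CPM, and Lox at 316 and 338 CPM.

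**Figure D2:**
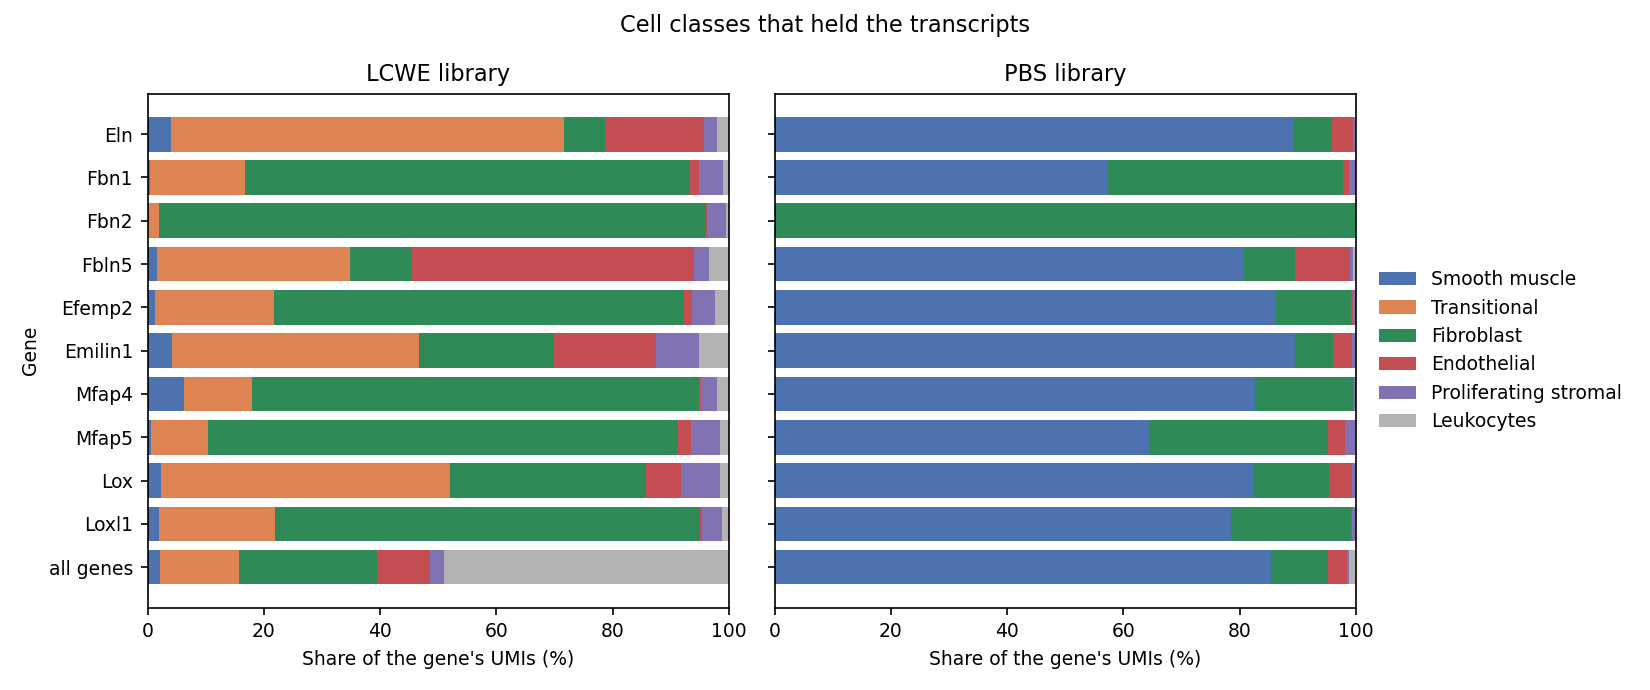
Share of each gene's UMIs (%) held by each class in the LCWE library (left) and the PBS library (right), with the share of all UMIs in the lowest bar. The transitional class held 67.6% of LCWE Eln UMIs. Smooth muscle cells held 89.4% of PBS Eln UMIs, and 53468481 of the 62600808 PBS UMIs of all genes.

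How did the transitional class compare with the 2 classes it is named after? Against LCWE fibroblasts it had higher Eln, Fbln5, Emilin1 and Lox and lower Fbn1, Fbn2, Mfap4, Mfap5 and Loxl1. Eln was 16.7-fold higher (16.3 to 17.1), at 278 UMIs per cell in the transitional class and 9.98 in LCWE fibroblasts. The median depths of these classes, in the same order, were 19942 and 11494 UMIs per cell. Fbln5 was 5.38-fold higher (5.08 to 5.7), Emilin1 3.16-fold higher (2.91 to 3.44) and Lox 2.54-fold higher (2.44 to 2.63). Fbn2 was 28.9-fold lower (18.8 to 46.8), with 21 UMIs in 283 cells. Mfap5 was 4.78-fold lower, Mfap4 3.87-fold lower, Fbn1 2.72-fold lower and Loxl1 2.11-fold lower, and Efemp2 lay 1.996-fold lower, just inside the 2-fold limit. Loxl1 was under 2-fold with each cell weighted equally (log2 -0.90) or thinned (-0.80), against -1.08. Fbn2 was at -5.62 without its richest cell and -3.66 thinned, against -4.85. Without the LCWE fibroblasts that had a Chl1 UMI the log2 ratio was 3.15 for Eln and -2.60 for Mfap4, against 4.06 and -1.95. Of the 10 members 4 were thus higher and 5 lower, where 9.97% and 15.4% of all measured genes were. The classes come from clustering of all genes, these 10 included, so the values describe the class and do not test it.

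Against LCWE smooth muscle cells, 6 of 10 members were higher in the transitional class and 1 was lower, where 8.47% and 12.2% of all measured genes were. Fbn1 was 5.16-fold higher (4.27 to 6.3), Lox 3.27-fold (2.92 to 3.68), Fbln5 3.17-fold (2.77 to 3.63), Eln 2.52-fold (2.44 to 2.59), Efemp2 2.39-fold (1.9 to 3.04) and Mfap5 2.38-fold (1.98 to 2.87). Mfap4 was 3.63-fold lower (3.14 to 4.19). Without cells over 10% mitochondrial UMIs the log2 ratio of Mfap5 was 0.75, against 1.25. Against PBS smooth muscle cells 3 members were higher and 1 lower, where 15.4% and 13.1% of all measured genes were. The higher ones were Fbn1 with 3.61-fold (3.48 to 3.75), Lox with 3.51-fold (3.41 to 3.61) and Fbn2. Fbn2 had 21 UMIs in the transitional class and 0 in the PBS class. It was 64.7-fold higher with the PBS sum raised to a floor of 3 UMIs, a value that is not a lower limit. Mfap4 was 10.5-fold lower (9.66 to 11.5). Eln was 1.9996-fold higher, with 13594 CPM in the transitional class and 6798 CPM in PBS smooth muscle cells, so that it just missed the 2-fold limit, and it passed it with cells weighted equally or thinned, without cells with a Ptprc UMI, with median-of-ratios scaling or with the lymphocyte level subtracted. Fbn2 had under 20 UMIs, and was not measured in this comparison, without its richest cell, without cells over 10% mitochondrial UMIs or after thinning. Both comparisons with LCWE classes and the one with PBS smooth muscle cells use the same transitional cells.

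**Figure D3:**
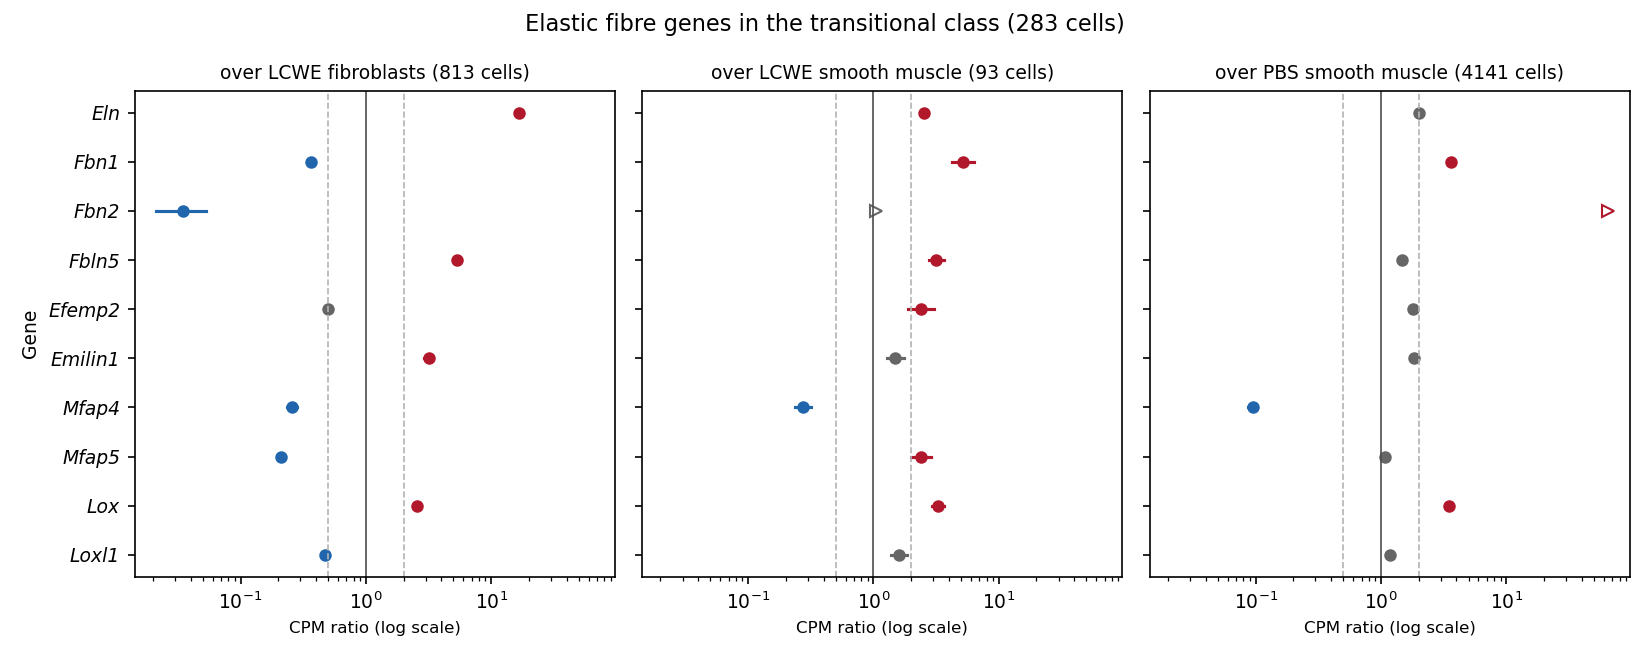
CPM ratio (log axis) of each gene in the transitional class over LCWE fibroblasts, LCWE smooth muscle cells and PBS smooth muscle cells, with 95% counting intervals. Red is at least 2-fold higher, blue at least 2-fold lower, grey in between, and open triangles mark ratios against a floor of 3 UMIs. Eln is 16.7-fold higher than in LCWE fibroblasts, and Mfap4 is lower in all 3 panels.

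Within the transitional class the members were spread over the cells to different degrees. At least 1 Eln UMI was found in 94.3% of its cells, with a median of 133 and a highest value of 1848 UMIs in a cell, and the 10% of cells with the most held 38.8% of the Eln UMIs. Lox was found in 99.3% of the cells, and the top 10% of cells held 26.0%. For Fbn2 the share was 3.53% of cells, and 1 cell held 9 of the 21 UMIs. In LCWE fibroblasts Eln was less even: the median was 3 UMIs per cell, the highest 558, and the top 10% of cells held 65.6% of the UMIs.

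Between the libraries, fibroblasts showed lower Eln, Fbln5 and Mfap4 and higher Fbn2 and Efemp2 in LCWE. Eln was at 813 CPM in LCWE and 4287 CPM in PBS fibroblasts, 5.27-fold lower (5.14 to 5.41). Mfap4 was at 358 and 1755 CPM, 4.9-fold lower (4.72 to 5.09), and Fbln5 at 155 and 534 CPM, 3.45-fold lower (3.24 to 3.66). Efemp2 was at 432 CPM in LCWE and 156 CPM in PBS fibroblasts, 2.76-fold higher (2.57 to 2.97). Fbn2 was at 105 and 1.64 CPM, 63.7-fold higher (34.5 to 133) on 1046 and 10 UMIs. Counted per cell, fibroblasts held 9.98 Eln UMIs in LCWE and 30.0 in PBS, at a median depth of 11494 and 6215 UMIs. Smooth muscle markers differed between the same cells: all 7 were present in both, their summed level was 89.9 CPM in LCWE and 530 CPM in PBS fibroblasts, and a Myh11 UMI was found in 15 of 813 and 161 of 868 cells. Without the cells that had a Myh11 UMI the log2 ratio was -2.43 for Eln, -2.36 for Mfap4 and -1.79 for Fbln5, against -2.40, -2.29 and -1.79 with all fibroblasts.

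The other 5 members lay within 2-fold in fibroblasts. Fbn1 was 1.58-fold higher (1.54 to 1.63) and Mfap5 1.22-fold higher (1.19 to 1.25) in LCWE. Loxl1 had a ratio of 1.08 (1.04 to 1.12), Lox of 1.00 (0.957 to 1.05) and Emilin1 of 0.931 (0.838 to 1.03), and for the last 2 the interval held 1. Of the 10 members 2 were higher and 3 lower, where 10.4% and 7.31% of 12357 measured genes were. The median log2 ratio was 0.05 over the members and 0.04 over all measured genes.

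**Figure D4:**
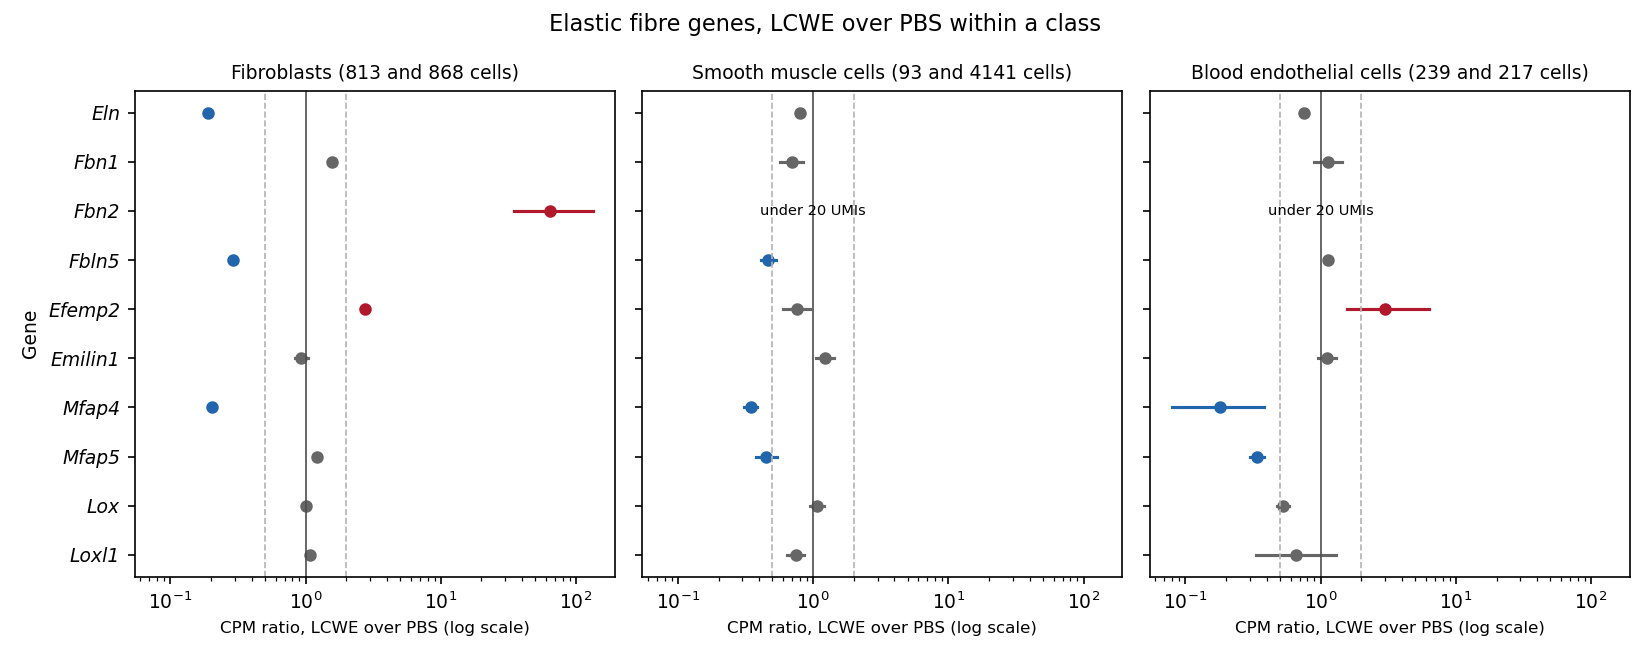
CPM ratio of LCWE over PBS (log axis) for each gene in fibroblasts, smooth muscle cells and blood endothelial cells, with 95% counting intervals. Red is at least 2-fold higher and blue at least 2-fold lower in LCWE, and Fbn2 had under 20 UMIs in the smooth muscle and endothelial panels. In fibroblasts Eln is 5.27-fold lower and Fbn2 63.7-fold higher.

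Fibroblasts were not uniform in either library, and the members varied inside them. PBS fibroblasts with a UMI of Hhip or Angptl7, and none of Inmt or Sult1e1, were 298 cells with 6464 CPM of Eln, against 1603 CPM in the 179 cells with the opposite pattern, a 4.03-fold difference (3.85 to 4.23). Mfap4 was 8.29-fold higher in the 298 cells (2816 and 340 CPM), Lox 2.88-fold higher (732 and 254 CPM) and Fbln5 2.37-fold higher (755 and 319 CPM), while Fbn1 was 1.68-fold lower (649 and 1092 CPM). Loxl1 had 614 and 643 CPM. The 4 dividing genes were chosen after their values were seen, and cells of 1 pool are not replicates. A UMI of Hhip or Angptl7 was present in 41 of 813 LCWE fibroblasts and 328 of 868 PBS fibroblasts, so the libraries differed in their share of such cells. With them left out of both libraries, the log2 ratio of LCWE over PBS fibroblasts was -2.02 for Eln, -1.62 for Mfap4 and 0.72 for Lox, against -2.40, -2.29 and 0.01 with all fibroblasts. There were then 2 members higher and 3 lower.

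In LCWE fibroblasts a UMI of Chl1, which encodes a cell adhesion molecule, was present in 481 cells and absent from 332, and 0 PBS fibroblasts had one. Cells with a Chl1 UMI had 504 CPM of Eln, against 1534 CPM in those without, 3.04-fold lower (2.91 to 3.18), and 271 against 562 CPM of Mfap4, 2.08-fold lower (1.94 to 2.22). Efemp2 was at 475 and 330 CPM, and Fbn2 at 118 and 72.7 CPM. Their median depths were 14431 and 7502.5 UMIs, so that cells with a Chl1 UMI were also the deeper ones. With Chl1 cells left out, the log2 ratio of Eln between LCWE and PBS fibroblasts was -1.48, against -2.40 with all cells, and that of Mfap4 was -1.64, against -2.29.

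**Figure D5:**
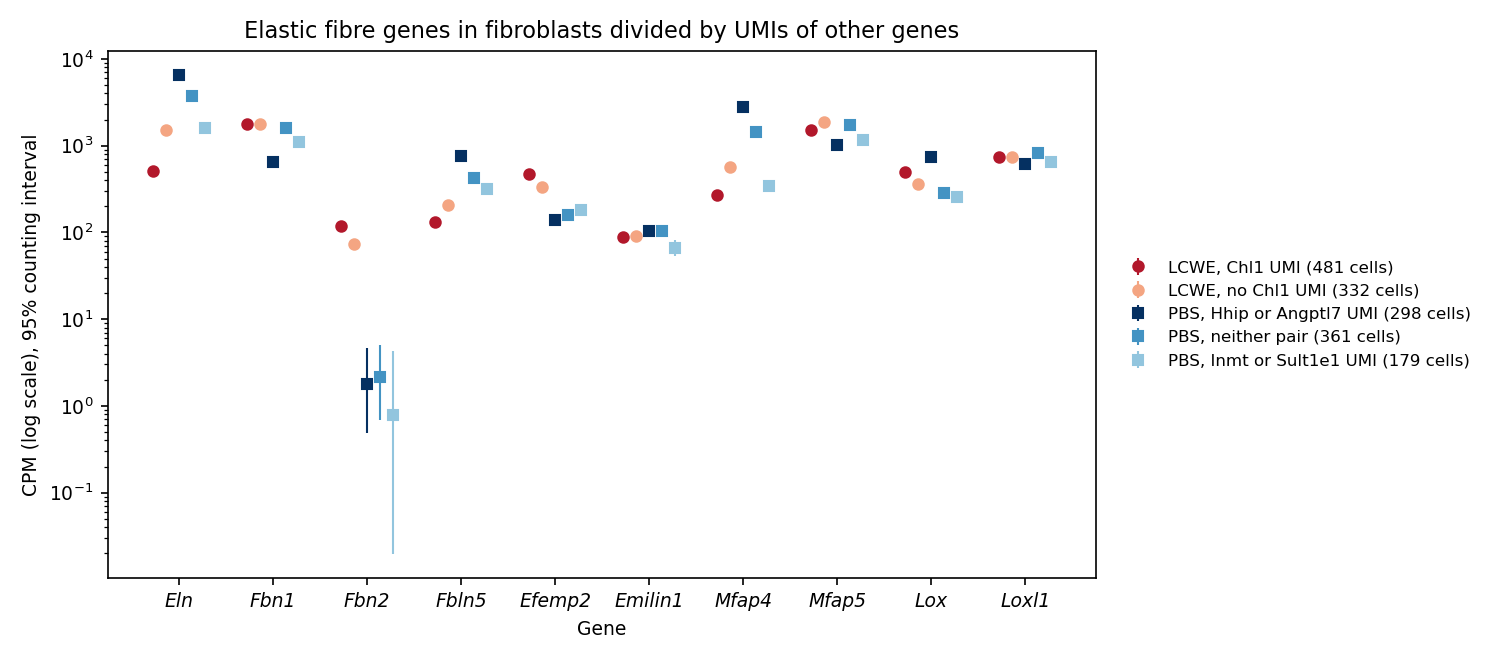
CPM (log axis) of each gene in LCWE fibroblasts with and without a Chl1 UMI (circles) and in PBS fibroblasts divided by UMIs of Inmt, Sult1e1, Hhip and Angptl7 (squares), with 95% counting intervals. Eln runs between 504 CPM in LCWE cells with a Chl1 UMI and 6464 CPM in PBS cells with a Hhip or Angptl7 UMI, while Loxl1 lies between 614 and 816 CPM in the 5 groups drawn. The 30 PBS cells with UMIs of both pairs are not drawn, and had 517 CPM of Loxl1.

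Smooth muscle cells had lower Mfap4, Mfap5 and Fbln5 in LCWE than in PBS, with Eln closer to its PBS level. Mfap4 was at 336 CPM in LCWE and 975 CPM in PBS, 2.9-fold lower (2.58 to 3.26). Mfap5 was at 143 and 317 CPM, 2.21-fold lower (1.86 to 2.66), and Fbln5 at 263 and 563 CPM, 2.14-fold lower (1.88 to 2.45). Eln was 1.26-fold lower (1.22 to 1.3), Emilin1 1.23-fold higher (1.05 to 1.44), and Lox had a ratio of 1.07 (0.955 to 1.2). Of 9 measured members 0 were higher and 3 lower, where 12.4% and 3.6% of all measured genes were. The LCWE class held 93 cells, and 32 of them had over 10% mitochondrial UMIs, against 334 of 4141 in PBS. With those cells left out the log2 ratio was -0.64 for Fbln5, -0.67 for Mfap5 and -1.05 for Mfap4, so that 1 member was lower. Without cells holding at least 2 of the pericyte markers the log2 ratio was -2.21 for Fbln5 and -0.85 for Mfap5, against -1.10 and -1.15 with all cells.

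Of the 6 fibroblast markers, all but Col1a2 were higher in LCWE than in PBS smooth muscle cells. Their summed level over 6 genes, all present in both, was 3421 CPM in LCWE and 2945 CPM in PBS smooth muscle cells. Dcn was at 467 and 38.3 CPM, Lum at 205 and 4.83 CPM and Dpt at 34.3 and 2.02 CPM. Pdgfra was at 8.01 and 4.86 CPM and Col1a1 at 1243 and 1095 CPM, whereas Col1a2 was lower in LCWE, at 1465 and 1800 CPM. Ptprc, the leukocyte marker CD45, was at 72.1 and 0.15 CPM. Without the 18 LCWE and 6 PBS cells that had a Ptprc UMI, the log2 ratio of Mfap5 was -0.96, against -1.15 with all cells, and 2 members were lower. The part of the fibroblast markers in these ratios was not tested. Among PBS smooth muscle cells, the 416 with a UMI of Pcp4, a calmodulin-binding peptide gene chosen after its values were seen, had 502 CPM of Mfap4 and 150 CPM of Mfap5, against 1029 and 336 CPM in the other 3725 cells. Eln was at 5795 and 6915 CPM in the same cells.

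In blood endothelial cells Mfap5 was at 154 CPM in LCWE and 452 CPM in PBS, 2.93-fold lower (2.61 to 3.3). Efemp2 was at 19.8 and 6.6 CPM, 3.01-fold higher (1.56 to 6.35) on 59 and 11 UMIs. Mfap4 was 5.53-fold lower (2.64 to 12.7) on 10 and 31 UMIs, at 0.0418 and 0.143 UMIs per cell, and its level per T, NK and innate lymphoid cell was 0.0191 and 0.2 UMIs. The PBS lymphocyte level rested on 15 UMIs, 6 of them in 1 cell. With the lymphocyte level subtracted, the PBS sum of Mfap4 fell below the floor of 3 UMIs and was raised to it. The log2 ratio of Mfap4 was then 0.0212, against -2.47, so the call did not hold and no direction was measured. Eln was 1.32-fold lower (1.3 to 1.35) in CPM, with 81.0 UMIs per cell in LCWE and 66.2 in PBS, and Lox was 1.89-fold lower (1.71 to 2.09). Fbln5 had a ratio of 1.13 (1.09 to 1.18). Thus 1 of 9 measured members was higher and 2 were lower, where 11.5% and 6.36% of all measured genes were. With lymphatic cells added, 0 of 9 were higher and 4 lower, where 10.2% and 5.66% of genes were, and the lymphatic cells themselves had 437 CPM of Eln in LCWE and 1716 CPM in PBS. Their median was 3 Eln UMIs per cell in both libraries. In PBS the top 10% of the 29 lymphatic cells held 63.6% of the Eln UMIs, with up to 166 in 1 cell.

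T, NK and innate lymphoid cells are not known to make elastic fibres, and served to gauge RNA that was free in the droplets. They had 0.304 Eln UMIs per cell in LCWE and 1.39 in PBS, where 1 cell held 65 of the 104 UMIs, and 0 of 9 measured members were higher and 5 lower in LCWE, where 3.28% and 7.97% of genes were. With the cell richest in each gene left out, the log2 ratio of Eln was -0.65, against -1.99 with all cells, and 2 members were lower. Myh11 stood at 3.66 CPM in LCWE lymphocytes and 49.2 CPM in PBS lymphocytes. LCWE fibroblasts held 9.98 and PBS fibroblasts 30.0 Eln UMIs per cell, above the lymphocytes of their own library. Cells named monocytes, macrophages and dendritic cells had 179 CPM of Eln in LCWE (908 cells) and 3016 CPM in PBS (18 cells), where the median was 1 UMI per cell and 1 cell held 344.

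Around the members, 6 lists of genes of the same pathway were followed in fibroblasts, where 10.4% of all measured genes were higher and 7.31% lower in LCWE. Ltbp2 is both among the microfibril and fibulin partners and among the TGF-β response genes, and is counted in each list. Of 18 microfibril and fibulin partners 3 were higher and 6 lower in LCWE. Fbln2, a fibulin of basement membranes and microfibrils, was at 627 and 180.5 CPM, 3.48-fold higher (3.26 to 3.71). Ltbp4, which tethers latent TGF-β and is needed for elastic fibres, was at 265 and 682 CPM, 2.57-fold lower (2.45 to 2.7). Fbln1 was at 986 and 1099 CPM, and Thsd4, which binds fibrillin-1, had 8 and 34 UMIs and was 6.97-fold lower (3.17 to 17.4). Of 6 measured genes for other lysyl oxidases and their maturation 0 were higher or lower; Bmp1, whose protease activates pro-lysyl oxidase, had a ratio of 1.96 (1.86 to 2.07), Loxl2 1.68 (1.55 to 1.83), Atp7a 1.12 (0.871 to 1.44) and Pcolce 0.905 (0.872 to 0.939).

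Among genes of proteases able to cleave elastin or matrix, 5 of 9 measured were higher and 0 lower in LCWE fibroblasts (10.4% and 7.31% of all genes), and the median log2 ratio was 1.53, against 0.04 over all genes. Mmp14, a membrane-bound collagenase, was at 318 and 110.0 CPM, 2.89-fold higher (2.66 to 3.15), and Mmp2, a gelatinase, at 1202 and 946 CPM, with a ratio of 1.27 (1.23 to 1.31). Ctss, a macrophage cathepsin, had 584 UMIs in LCWE and 1 in PBS fibroblasts, and Mmp9 50 and 0. In the same cells the macrophage gene Lyz2 was at 219.7 and 1.31 CPM and Ptprc at 43.2 and 0.164 CPM, the 5 monocyte, macrophage and dendritic markers summed to 268 and 14 CPM, and the part of such RNA in Ctss and Mmp9 was not tested. Protease inhibitors gave 3 higher and 1 lower of 6 measured, against the same shares of all genes. Serpina3n was 12.9-fold higher (11.8 to 14.2), Timp1 3.2-fold higher (3.01 to 3.42) and Slpi 3.21-fold higher (2.72 to 3.82), while Cst3, cystatin C, was 6.07-fold lower (5.96 to 6.19).

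Integrins that bind elastic fibre proteins gave 3 higher and 1 lower of 8 in fibroblasts, where 10.4% and 7.31% of all genes were. Itga8 had 14 and 232 UMIs and was 27.2-fold lower (15.9 to 50.5), Itga5 was 2.06-fold higher (1.74 to 2.43), Itgb3 2.11-fold higher (1.64 to 2.74), and Itga9 1.75-fold lower (1.49 to 2.06). Of 10 TGF-β response genes 1 was higher, a share near the 10.4% of all genes, and 3 were lower, where 7.31% of all genes were: Postn was 2.83-fold higher (2.72 to 2.95), and Ctgf was 7-fold lower (6.44 to 7.62), Tgfbi 4.36-fold lower (4.14 to 4.59) and Ltbp2 2.75-fold lower (2.32 to 3.25). In smooth muscle cells the lists gave, as higher and lower of those measured, 5 and 3 of 18 microfibril and fibulin partners, 2 and 0 of 5 lysyl oxidase genes, 4 and 0 of 7 proteases, 4 and 0 of 7 inhibitors, 0 and 2 of 8 integrins and 1 and 1 of 10 TGF-β response genes, where 12.4% and 3.6% of all genes were.

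In the transitional class, set against LCWE fibroblasts, the lists gave, as higher and lower of those measured, 2 and 9 of 18 microfibril and fibulin partners, 1 and 2 of 6 lysyl oxidase genes, 0 and 4 of 9 proteases, 2 and 1 of 6 inhibitors, 5 and 0 of 8 integrins and 3 and 0 of 10 TGF-β response genes, where 9.97% and 15.4% of all genes were. Fbln1 was 10.7-fold lower (9.77 to 11.7), Serpina3n 6.82-fold lower (6.35 to 7.33) and Bmp1 2.92-fold lower (2.74 to 3.11). Itga8 was 85.8-fold higher (50.8 to 158) on 696 and 14 UMIs, Ltbp2 32.9-fold higher (28.7 to 37.7), Ctgf 24.2-fold higher (22.4 to 26.2) and Timp1 7.5-fold higher (7.3 to 7.72).

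The pattern of each member over 24 groups of class and library with at least 50 cells was set beside that of other genes by Pearson's r of log2(CPM + 1), as a description of groups that share 2 libraries and divide mainly into stroma and leukocytes. The genes most like Eln were Bgn (r = 0.976), Pde3a (0.974) and Mgp (0.97). Bgn (0.978), Sparc (0.973) and Col5a2 (0.973) were nearest to Lox, and Islr (0.982), Col3a1 (0.976) and Col6a1 (0.974) to Loxl1. For Fbln5 they were Sulf1 (0.966), Gxylt2 (0.961) and Phlda3 (0.957), for Emilin1 Fermt2 (0.96), Cald1 (0.959) and Tns1 (0.959), and for Efemp2 Ddr2 (0.923), Col6a2 (0.913) and B3gnt9 (0.913). Fbn1 lay nearest to Antxr1 (0.943), Klhl13 (0.935) and Plod2 (0.933), Mfap4 to Gabra3 (0.949), Osr1 (0.948) and Col6a3 (0.948), and Mfap5 to Ccdc8 (0.967), Pcolce2 (0.957) and Sparc (0.955). Fbn2 had the least similar neighbours, with Bmper (0.767), Sfrp4 (0.759) and Ssc5d (0.755). Between members, r was 0.953 for Loxl1 and Mfap4, 0.947 for Eln and Lox, 0.935 for Eln and Fbln5, and 0.221 for Eln and Fbn2.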

How the data were processed

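Raw UMI counts per gene and cell, not normalized, were deposited by the authors for both libraries, with a table of cell classes. The percentage of mitochondrial UMIs in each cell was deposited by the authors beside them. Reads were processed with Cell Ranger 3.0.2 and mm10, per the submitters' processing notes, and the strand used in counting is not given in the sources used here. Genes that overlap Eln, Fbn1, Fbn2, Efemp2, Mfap4 or Lox lie on the other strand, among them Mus81 with 1244 and Mapk7 with 1046 UMIs. All 10477 deposited cells were used. The members, lists, markers and classes were chosen with earlier results of these data known. UMIs were summed per class and library and divided by all UMIs of the class (CPM). Intervals (95%) are exact Poisson for levels, exact conditional binomial for ratios and Clopper-Pearson for shares. The lowest total of a cell was 1613 UMIs in LCWE and 1671 in PBS, and the median 5508 and 11252.5.

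A gene was measured from 20 UMIs over the compared groups, and the lower group's sum was raised to a floor of 3 UMIs. That floor replaced, after its effect was seen, one that raised both sums and called genes absent from the shallower group. Classes needed 50 cells in both libraries. Named list genes are up to 4 per list with the most UMIs over both libraries, those 2-fold different in fibroblasts or smooth muscle cells first, and the 3 genes most like each member. Other genes were chosen after their values were seen, as were the divisions of cells by Hhip, Angptl7, Inmt, Sult1e1, Pcp4 and Myh11. Positions are from GENCODE vM21 (GRCm38). Doublets were not called again. The method was tested on simulated data, Poisson sums with known ratios. These hold no variation between cells or between pools, so the test does not cover it. Python 3.11.15, numpy 2.4.6, scipy 1.17.1, pandas 2.3.3 and matplotlib 3.10.9 were used.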

Additional observations from a re-analysis of the deposited data

Results flagged for a closer look

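For some members the LCWE over PBS ratio lay on opposite sides of 1 in 2 classes, each with a counting interval that did not hold 1. With 1 library per condition these differences were not tested, and 3 classes were compared for each gene. Values are differences of log2 ratios. Fbn1 was higher in LCWE fibroblasts and lower in LCWE smooth muscle cells, a difference of 1.18. Efemp2 was higher in fibroblasts and in blood endothelial cells and lower in smooth muscle cells, with differences of 1.87 and 1.99. Mfap5 was higher in fibroblasts and lower in smooth muscle cells (1.43) and in blood endothelial cells (1.84). Fbln5 was slightly higher in blood endothelial cells and lower in fibroblasts (1.97) and in smooth muscle cells (1.28). Loxl1 was slightly higher in fibroblasts and lower in smooth muscle cells (0.53), but without fibroblasts that had a Hhip or Angptl7 UMI, or with cells thinned, its log2 ratio in fibroblasts was -0.02, against 0.10, and the directions were no longer opposite.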

How the results depend on the processing

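No paired analysis was possible because each condition is 1 library. In the tallies below, the alternatives with a different minimum of UMIs repeated the main ratio by construction. So did raising both sums to the floor, where both sums had reached it. Such values could not change sign or fall under 2-fold. In fibroblasts all 65 alternative values of the 5 members called there kept their sign and stayed at least 2-fold. The log2 ratio of Eln ran between -2.47 and -1.48 there, and that of Fbn2 between 5.28 and 6.67. Of the 99 alternative values against LCWE fibroblasts in the transitional class 97 stayed at least 2-fold, of 70 against LCWE smooth muscle cells 69, and of 36 against PBS smooth muscle cells 36, Fbn2 being there only where it kept 20 UMIs; there 6 members were higher at a fold of 1.5. In smooth muscle cells 31 of 36 values stayed at least 2-fold, and 1 member was lower without cells over 10% mitochondrial UMIs or with the interval wholly beyond 2-fold. Mfap5 was under 2-fold there without cells with a Ptprc UMI (-0.96) or thinned (-0.94).

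In blood endothelial cells 0 members were higher and 1 lower with thinned cells or at least 100 UMIs. There 0 were higher with the interval rule, and 4 were lower at a fold of 1.5. With the lymphocyte level subtracted 2 were higher and 1 lower. The PBS sums of Mfap4 (log2 ratio 0.0212) and of Loxl1, 1 of the 2 higher, were then raised to the floor of 3 UMIs, which set their values. Over all endothelial cells 2 were lower with thinned cells or the interval rule. With the lymphocyte level subtracted 1 was higher, Loxl1 at 1.19, but its PBS sum was raised to the floor, which set this value. In T, NK and innate lymphoid cells 2 were lower with thinned cells, at least 100 UMIs or the top cell left out, and 3 with the interval rule. Without its top cell Fbln5 was at 0.19, with its PBS sum raised to the floor. The cause was not tested. Alternatives chosen after seeing the data were leaving out cells with a Hhip or Angptl7 UMI, with a Myh11 UMI (fibroblasts) or without one (smooth muscle cells), and raising both sums to the floor; the last left 6 members lower in the lymphoid cells and moved the share of all genes higher in smooth muscle cells to 20.5% and lower in lymphoid cells to 16.4%. Members with few UMIs, such as Fbn2 outside LCWE fibroblasts, were limited by depth.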
